A study of Mus musculus with 9 samples.

Results

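Collagens are the main structural proteins of the extracellular matrix, and each is built from alpha chains wound into a triple helix. Fibrillar collagens such as types I, III and V form the fibrils that bear load in tendon, bone and joint capsule, FACIT collagens (fibril-associated collagens with interrupted triple helices) bind to the surface of those fibrils, and types IV and VI form networks and beaded filaments around cells. In the joint, the synovial fibroblast is a major source of them. The genes described here are the rows of an expression table whose mouse symbol reads Col, a number, a and a number. The table of 47729 genes held 44 of them. A mean level of at least 3 was taken as measured, and this left 39 collagen genes measured and 5 not measured.

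The values came from cultured synovial fibroblasts of collagenase-digested paws of BALB/c mice, all wild type, after 5 passages. Primed cultures (3 libraries) grew from left paws that received monosodium urate (MSU) crystals, the crystals of gout, on days 0 and 9. Non-primed cultures (3 libraries) grew from right paws that received them on day 9 alone, and naive cultures (3 libraries) from joints without injection. RNA was taken at day 18 in every group. Primed against non-primed asks what an earlier injection adds to a later one, and each against naive asks how cells of an injected paw differ from those of an untouched joint. Paw side coincides with priming, so the side and the earlier injection cannot be told apart. The injected groups used different paws, which may belong to the same mice, and a number need not mark a particular mouse, so the p-values measure only the spread between these samples. Levels are rlog values (regularised logarithm, log2 scale), already corrected for depth by the authors, and the depth of each library is unknown. On that scale the values of genes with few reads are drawn together, so differences of the weakest collagens are understated. In bulk RNA, fewer cells of a type and less RNA per cell cannot be told apart.

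The cultures carried the fibroblast label in their RNA: all 12 listed fibroblast markers were measured, with a library mean of 13.24 to 13.60 rlog in primed, 13.48 to 13.52 in non-primed and 13.21 to 13.62 in naive cultures. Macrophage markers were also present in every library, with 14 of 14 measured and none at 0. Their summed level was 15.60 to 16.83 (log2) in primed, 15.81 to 16.32 in non-primed and 13.09 to 15.74 in naive cultures. Against naive, the median difference of these markers was 2.01 in primed and 1.85 in non-primed cultures (0 passed). Their part in the collagen values was not tested. Of 9 skeletal muscle markers 5 were measured, all higher against naive in both injected groups (0 passed), with a summed level of 7.37 to 8.92 in primed, 7.83 to 8.69 in non-primed and 7.13 to 7.33 in naive cultures, and Myh4, Ckm, Myod1 and Myog below 3. Of 7 adipocyte markers 5 were measured, with a summed level of 10.32 to 10.57 in primed, 10.17 to 10.25 in non-primed and 10.02 to 11.16 in naive cultures. Their median difference from naive was -1.53 in primed and -2.10 in non-primed cultures (0 passed), Lep was listed at 0, and the part of either list was not tested. The naive cultures differed most from each other: naive 3 stood apart on the first principal component of all genes and naive 2 lay at the end of the second.

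No collagen gene passed the test in any comparison. The test was limma on 15623 genes with an adjusted p below 0.05 (Benjamini-Hochberg), and 0 of 39 collagens passed for primed against non-primed, where 0.0% of all genes tested did. For non-primed against naive 0 of 39 passed beside 0.141% of all genes, for primed against naive 0 of 39 beside 0.102%, and for any difference among the 3 groups 0 of 39 beside 0.0704%. The smallest adjusted p of a collagen was 0.9999, 0.142 and 0.11 in those 3 pairwise comparisons, in that order. At an unadjusted p below 0.05, primed against non-primed held 0 of 39 collagens beside 1.26% of all genes. Non-primed against naive held 8 (20.5%) beside 15.4%, with Col14a1, Col16a1, Col27a1, Col28a1, Col5a1 and Col6a5 higher and Col4a4 and Col9a3 lower in non-primed cultures. Primed against naive held 4 (10.3%) beside 16.9%, with Col10a1, Col16a1 and Col28a1 higher and Col9a3 lower in primed cultures. Any difference among the 3 groups held 4 (10.3%) beside 12.8%: Col16a1, Col28a1, Col4a4 and Col9a3. These shares of the 39 lay near those of all genes. Both comparisons with naive cultures share the naive libraries.

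Groups that did not overlap were counted as well, because the smallest two-sided p of an exact permutation test is 0.1 with 3 libraries in each group. Primed and non-primed libraries did not overlap for 1 of 39 collagens (2.56%, Col6a2) beside 11.6% of all genes. Non-primed and naive libraries did not overlap for 8 (20.5%) beside 21.9%, and primed and naive for 2 (5.13%) beside 17.1%. The difference was within 0.5 on the log2 scale for all 39 collagens in primed against non-primed, for 25 in non-primed against naive and for 26 in primed against naive. The median 95% interval of a collagen difference reached 0.635 to either side, beside 0.347 over all genes. These intervals are unadjusted, so for the typical collagen they include 0 below about that size. Passing the adjusted threshold took more. Col28a1 differed by 1.71 in non-primed against naive and did not pass (limma, adjusted p = 0.142).

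**Figure D1:**
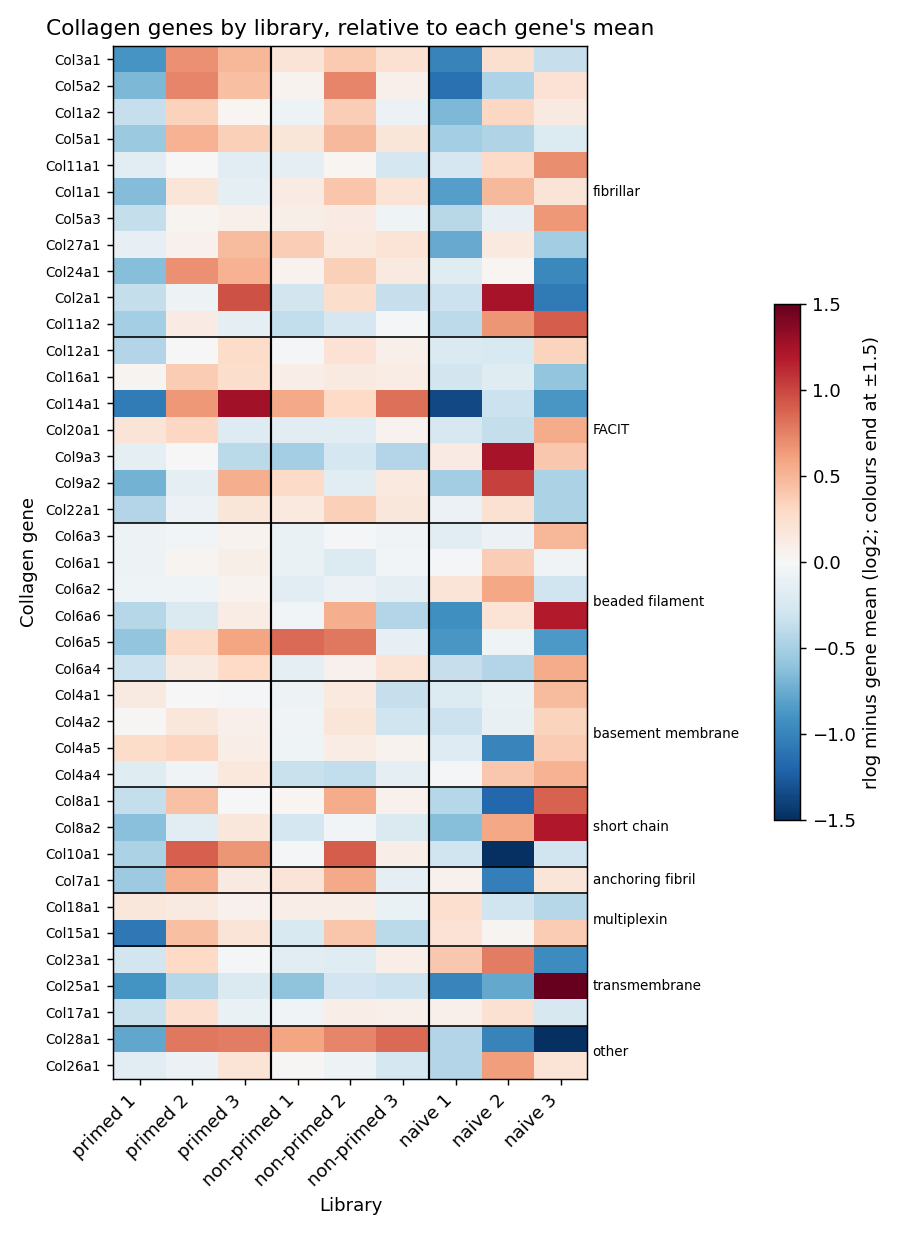
Deviation of each measured collagen gene (rows) from its own mean over 9 libraries, in log2 units of rlog, with primed libraries on the left, then non-primed and naive. Primed 1 and naive 1 are low for most fibrillar collagens, and naive 2 and naive 3 carry the most extreme single values.

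The measured collagens also varied more between cultures of a group than the typical gene did. The median SD among 3 libraries was 0.314 for collagens and 0.138 for all genes tested in primed cultures, 0.151 and 0.103 in non-primed cultures, and 0.53 and 0.224 in naive cultures. Library primed 1 was the lowest of the 3 primed libraries for 34 of 39 collagens, where it was the lowest for 38.4% of all genes. The exceptions were Col18a1, Col20a1, Col4a1, Col4a5 and Col9a3. Its 11 fibrillar collagens lay a median of 0.509 below their means over 9 libraries, and those of naive 1 a median of 0.513 below. The fibroblast marker mean was also lowest in primed 1 and in naive 1 within their groups. Single markers differed in this: in both libraries Dcn, Lum, Fap, Twist1, Fbn1 and Pdgfrb were the lowest of the group, and Vim and S100a4 the highest. The other listed fibroblast markers held neither place in both libraries. The part of the marker mean in these values was not tested. Naive 3 was the highest of all 9 libraries for 15 collagens, a place it held in 25.1% of all genes.

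The balance of differences between primed and non-primed cultures moved most with 1 library, primed 1. With all libraries, 18 collagens had a difference above 0 and 21 below, with a median of -0.036 on the log2 scale beside 0.001 for all genes. Without primed 1, 16 of the 39 changed sign, all of them upwards, so that 34 were above 0 and 5 below. The median was then 0.15 beside 0.009 for all genes, and still none passed (limma, adjusted p of 0.9993 or more for each). Primed 1 was the lowest primed library for most collagens, so leaving it out had to raise most of these differences. The upward shift is therefore no separate result, and the share of all genes that changed sign was not calculated. Without non-primed 2 the median was 0.055, with 25 above 0. Against naive, the median was 0.079 for non-primed and -0.005 for primed cultures. It was -0.097 for non-primed against naive without naive 1, 0.248 without naive 3 and -0.01 without non-primed 2. For primed against naive it was 0.16 without primed 1, 0.085 without naive 2 and 0.186 without naive 3. Leaving out a single library moved the difference of a gene by over 1.5 times, or turned its sign, for 38 of 39 collagens in primed against non-primed. The count was 31 in non-primed against naive and 37 in primed against naive. The share over all genes was not calculated, and a difference near 0 meets this rule easily. The counts can therefore not be read as particular to collagens.

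Type III collagen, which makes the fine fibrils of distensible tissues, gave the highest level of the family. Per kilobase of exon its chain Col3a1 (chromosome 1, 45311538 to 45349706, GRCm38) had a mean of 15.16 (rlog minus log2 length), above Col5a2 at 14.00, Col6a1 at 12.84, Col12a1 at 12.25, Col1a2 at 12.05 and Col5a1 at 12.02. Col1a1, the other chain of type I, stood lower in that order, at 10.98. When these values were put back on a linear scale, Col3a1 made up 30.7% to 44.9% of the collagen sum in primed, 39.9% to 43.1% in non-primed and 30.7% to 44.5% in naive cultures. Col5a2 made up 15.8% to 20.7% in primed, 17.3% to 22.6% in non-primed and 12.2% to 20.3% in naive cultures. Neither share separated the groups. Exon length here counts the exons of all annotated transcripts of a gene, so this order and these shares depend in part on annotation.

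**Figure D2:**
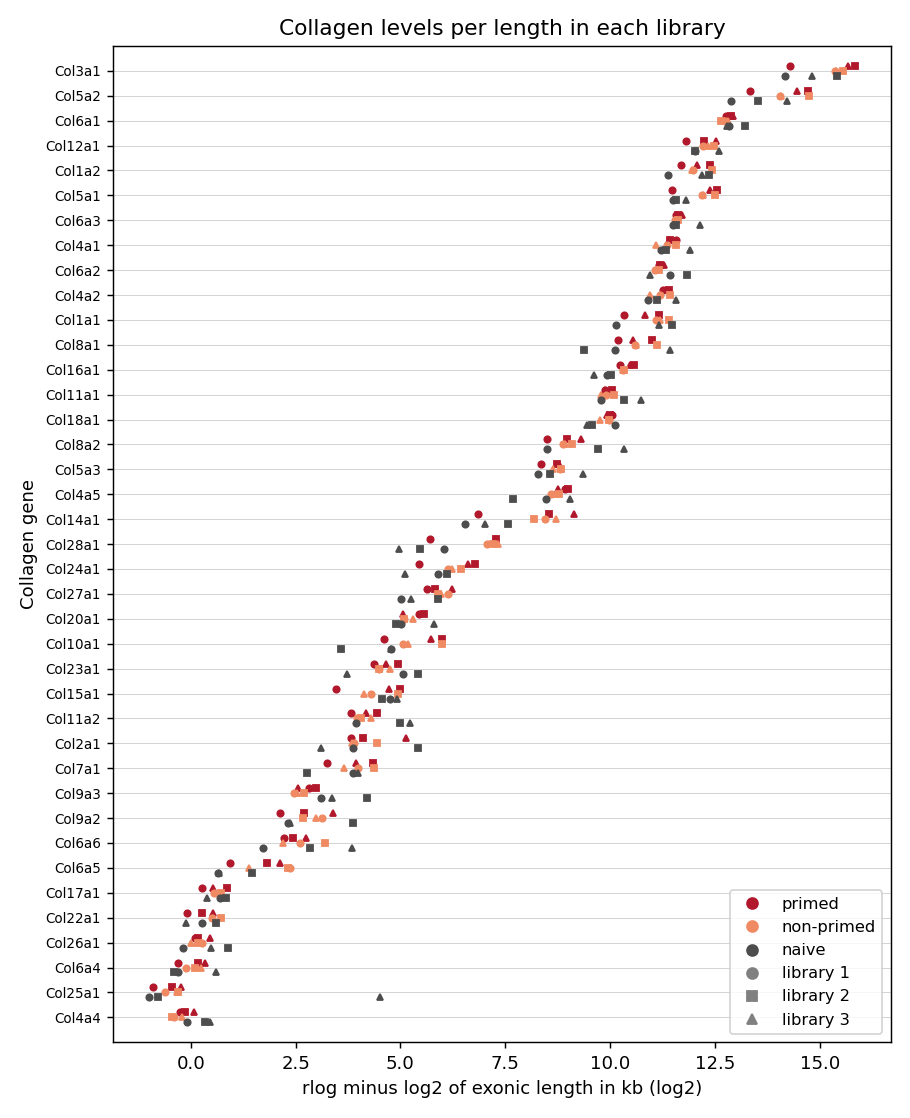
Level of each measured collagen per kilobase of exon (rlog minus log2 length in kb), for each library, with the genes in order of their mean. Col3a1 and Col5a2 lie above the other genes on average, and the weakest genes, from Col17a1 down to Col4a4, have means of 0.62 to -0.08.

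Because Col3a1 leads the family, the 250 bases before its RefSeq start (build GRCm38.p6, chr1:45311288-45311537, plus strand) are printed here, read 5′ to 3′ along the gene. Capitals mark a match to TATAAA, the letters of a TATA box, whose first base lies 117 bases before the start.
Col3a1: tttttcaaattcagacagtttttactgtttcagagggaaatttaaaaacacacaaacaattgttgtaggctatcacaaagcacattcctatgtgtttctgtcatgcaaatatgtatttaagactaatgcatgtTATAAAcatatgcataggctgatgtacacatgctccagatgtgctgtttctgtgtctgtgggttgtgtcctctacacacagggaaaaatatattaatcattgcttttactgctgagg
The letters TATAAA, on either strand, stand in that window in 5 of 35 matched collagen genes (14.3%) and in 12.4% of 32851 promoters of all genes. CCAAT, the other motif searched, stands in 13 of 35 (37.1%) and in 33.8% of all promoters. A match describes the letters only.

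Among the fibrillar collagens, 11 of 11 were measured and none passed. Col3a1 had 17.58, 19.14 and 18.96 rlog in primed, 18.65, 18.85 and 18.69 in non-primed and 17.46, 18.70 and 18.11 in naive libraries. Its lowest values were in primed 1 and naive 1. The groups overlapped, and naive 2 was the only naive library to reach the non-primed values. The difference was -0.17 (95% interval -1.35 to 1.01) for primed against non-primed, 0.64 (SE 0.52) for non-primed against naive and 0.47 (SE 0.52) for primed against naive (limma, adjusted p = 0.9999, 0.603 and 0.679). Col5a2, a chain of type V collagen, which sets fibril diameter, had 16.59, 17.99 and 17.71 in primed, 17.32, 18.00 and 17.34 in non-primed and 16.14, 16.80 and 17.48 in naive libraries. Naive 3 reached into the non-primed range, and the differences were -0.12, 0.74 and 0.62 (SE 0.47 each, adjusted p from 0.496 to 0.9999).

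Col5a1, the other main type V chain (chromosome 2, 27886425 to 28039514), had 14.56, 15.63 and 15.46 rlog in primed, 15.29, 15.59 and 15.29 in non-primed and 14.60, 14.66 and 14.90 in naive libraries. Every non-primed library lay above every naive library, and primed 1 lay below all of them. The difference was 0.67 (95% interval 0.07 to 1.27, adjusted p = 0.281) for non-primed against naive, 0.50 (SE 0.27, adjusted p = 0.372) for primed against naive and -0.17 (SE 0.27, adjusted p = 0.9999) for primed against non-primed. Without primed 1 the difference between primed and non-primed was 0.16 (SE 0.17), of the opposite sign. It shares 99 exonic bases with an opposite-strand transcript, 2810430I11Rik, at a mean of 6.55 rlog, and the strand setting of the counting is not given in the sources used here, so its value is uncertain to that extent.

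Type I collagen chains, the main protein of bone and tendon, did not separate the groups singly. Col1a1 had 13.05, 13.88 and 13.55 rlog in primed, 13.82, 14.11 and 13.89 in non-primed and 12.86, 14.19 and 13.89 in naive libraries. Primed 2 alone reached the non-primed range, and the difference of primed from non-primed was -0.45 (95% interval -1.20 to 0.30, limma adjusted p = 0.9999). Against naive, Col1a1 differed by 0.29 (SE 0.33) in non-primed and by -0.15 (SE 0.33) in primed cultures. Col1a2 had 15.34, 16.03 and 15.71 in primed, 15.61, 16.05 and 15.59 in non-primed and 15.01, 16.00 and 15.82 in naive libraries, so the 3 groups overlapped. Its differences were -0.06, 0.14 and 0.08 (SE 0.30 each, adjusted p from 0.864 to 0.9999).

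The remaining fibrillar genes were weaker or more variable. Col27a1, a collagen of developing cartilage, had 9.34, 9.53 and 9.93 rlog in primed, 9.83, 9.61 and 9.67 in non-primed and 8.71, 9.61 and 8.94 in naive libraries. Naive 2 reached both injected ranges, and the difference was 0.61 (SE 0.23, adjusted p = 0.262) for non-primed and 0.51 (SE 0.23, adjusted p = 0.309) for primed against naive. Col11a1, a chain of the cartilage fibril that joint fibroblasts also make, had 13.54, 13.72 and 13.56 in primed, 13.57, 13.75 and 13.45 in non-primed and 13.46, 14.00 and 14.41 in naive libraries. It was highest in naive 3 and naive 2, while naive 1 lay within the injected values (differences -0.37 for non-primed and -0.35 for primed against naive, SE 0.21, adjusted p = 0.456 and 0.421). Its partner Col11a2 had the same order, with 7.77 and 8.02 in naive 2 and naive 3 and 6.60 to 7.22 in the other 7 libraries. Col24a1, at 8.38 to 9.71 in primed and 9.07 to 9.38 in non-primed libraries, was at 8.05 to 9.05 in naive ones, so its non-primed and naive values did not overlap (difference 0.56, SE 0.36, adjusted p = 0.508). Col5a3 spanned 11.05 to 12.13 over the 9 libraries and Col2a1, the collagen of cartilage, 6.33 to 8.63.

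**Figure D3:**
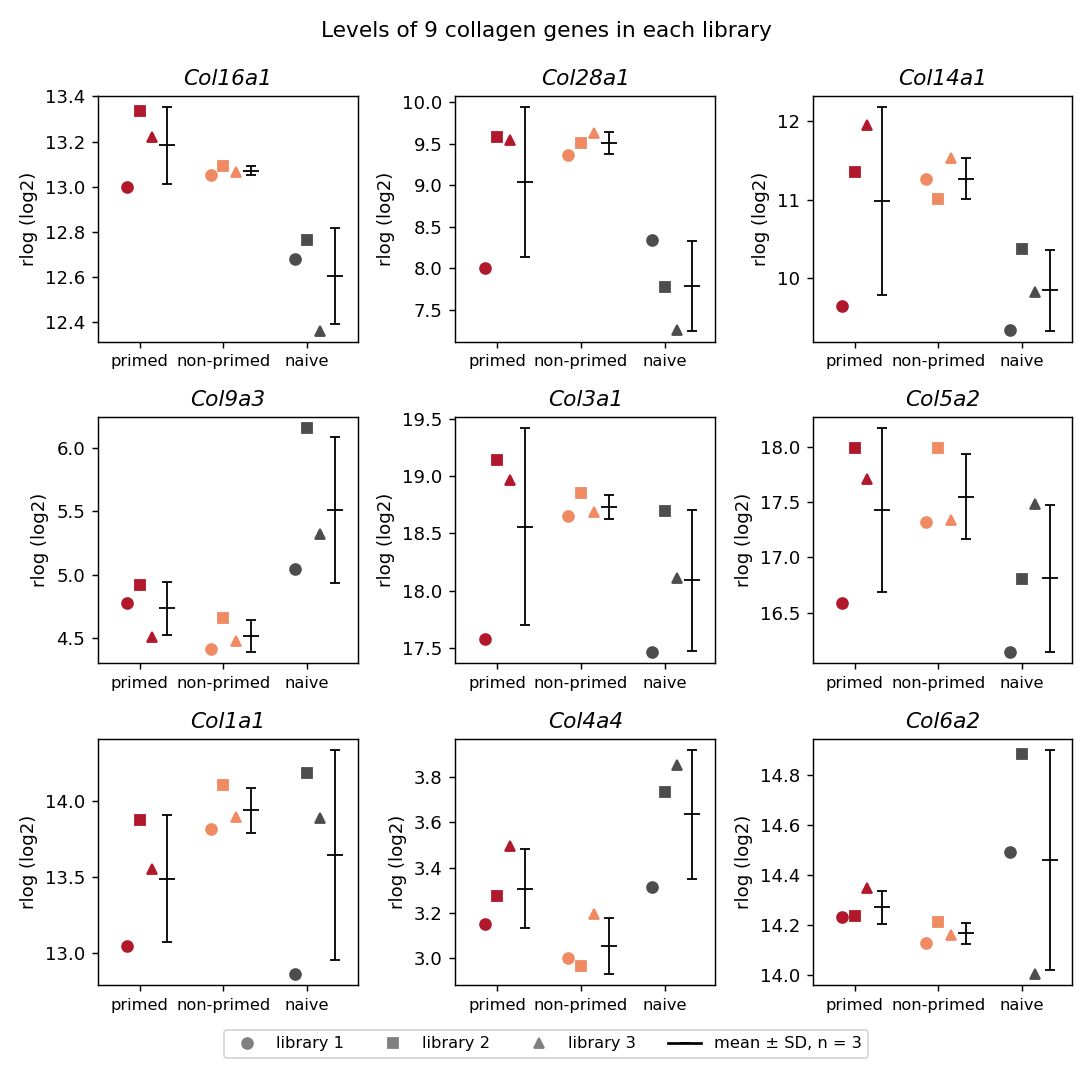
Level (rlog, log2 scale) of the collagens the text turns on, with 1 point per library, primed on the left, then non-primed and naive, and a dash with bar for the group mean ± SD (n = 3). Col16a1 is the gene whose 6 injected values all lie above the naive ones, and Col9a3 the gene whose 6 injected values all lie below.

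Of the 9 FACIT genes, 7 were measured. Among all 39 measured collagens, Col16a1 alone had all 6 injected libraries above all 3 naive ones, and Col9a3 alone had all 6 below, patterns held by 6.13% and 5.34% of all genes. Col16a1, the chain of type XVI collagen (chromosome 4, 130047840 to 130099283), links fibrils and cells in skin and cartilage. It had 13.00, 13.33 and 13.22 rlog in primed, 13.05, 13.09 and 13.07 in non-primed and 12.68, 12.77 and 12.36 in naive libraries. The non-primed values lay closest together, and the injected groups overlapped. Col16a1 differed by 0.58 (95% interval 0.30 to 0.86, limma adjusted p = 0.11) in primed and by 0.47 (0.18 to 0.75, adjusted p = 0.163) in non-primed against naive cultures, short of the threshold. Primed against non-primed it differed by 0.12 (SE 0.12, adjusted p = 0.9999). Over 17 alternative analyses its difference from naive stayed between 0.46 and 0.67 in primed and between 0.35 and 0.55 in non-primed cultures. It passed in both with sample weights, and in primed cultures also without naive 2 (adjusted p = 0.0462). With sample weights, 733 of all genes passed for primed and 621 for non-primed against naive. The number of all genes that passed without naive 2 is not given here.

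The 250 bases before the RefSeq start of Col16a1 (GRCm38.p6, chr4:130047590-130047839, plus strand) are shown because it is the collagen with the smallest p against naive. Capitals mark CCAAT, whose first base lies 113 bases before the start, and exons of Gm12963 overlap the window.
Col16a1: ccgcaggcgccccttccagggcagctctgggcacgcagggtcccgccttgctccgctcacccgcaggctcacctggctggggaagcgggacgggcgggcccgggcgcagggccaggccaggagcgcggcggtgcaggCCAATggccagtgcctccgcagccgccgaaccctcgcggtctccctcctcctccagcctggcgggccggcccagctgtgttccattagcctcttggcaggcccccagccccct
No TATAAA stands in these letters.

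Col9a3, a chain of the type IX collagen of cartilage (chromosome 2, 180597790 to 180622189), had 4.78, 4.92 and 4.51 rlog in primed, 4.41, 4.66 and 4.48 in non-primed and 5.05, 6.16 and 5.32 in naive libraries. All 3 naive libraries lay above all 6 injected ones, with naive 2 the farthest. The difference was -0.99 (SE 0.27, adjusted p = 0.164) for non-primed and -0.77 (SE 0.27, adjusted p = 0.221) for primed against naive, and 0.22 (SE 0.27, adjusted p = 0.9999) for primed against non-primed. The gene shares 234 exonic bases with Tcfl5 on the other strand, whose mean was 6.33 rlog beside 4.92 for Col9a3, so its value is uncertain where reads are shared.

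Naive 2 was the highest library for Col2a1, Col9a2 and Col9a1 as well. Other collagens of cartilage did not share this: Col10a1 was at its lowest there, Col11a1 and Col11a2 were highest in naive 3, and Col27a1 was highest in primed 3. Col2a1 stood at 8.63 there, against 7.03 to 8.35 in primed and 7.04 to 7.65 in non-primed libraries and 6.33 and 7.07 in the other naive ones. Col9a2 stood at 5.49 in naive 2 and at 3.76 to 5.01 in the other 8, and Col9a1, not measured by its mean, at 3.79 in naive 2 and 1.71 to 2.13 elsewhere. The mean of the 6 measured of 10 chondrocyte markers was 8.22 to 9.05 in primed, 8.29 to 8.77 in non-primed and 8.65 to 10.14 in naive cultures, with naive 2 at 10.14. Of the 10 listed, Acan, Matn1 and Matn3 had means below 3 and Snorc was listed at 0 in all libraries. Of those measured, Comp, Cnmd, Sox9, Sox6 and Hapln1 were each highest in naive 2, and Sox5 in primed 3. The part of chondrocyte RNA in the Col9a3 values was not tested.

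Col14a1, which binds decorin on the fibril surface (chromosome 15, 55307750 to 55520803), had 9.65, 11.36 and 11.96 rlog in primed, 11.27, 11.00 and 11.53 in non-primed and 9.34, 10.37 and 9.83 in naive libraries. Every non-primed value lay above every naive one, while primed 1 lay among the naive values. The difference was 1.42 (SE 0.52, adjusted p = 0.25) for non-primed and 1.14 (SE 0.52, adjusted p = 0.313) for primed against naive, and -0.28 (95% interval -1.47 to 0.91, adjusted p = 0.9999) for primed against non-primed. Without primed 1, primed cultures differed from naive ones by 1.81 (SE 0.31, adjusted p = 0.0659). Col12a1, the FACIT of stretched tissue and the strongest of its class, had 15.74, 16.18 and 16.46 in primed, 16.15, 16.40 and 16.25 in non-primed and 15.96, 15.95 and 16.52 in naive libraries. Its groups overlapped, and its differences were -0.14, 0.13 and -0.02 (SE 0.24 each, limma adjusted p from 0.852 to 0.9999). Col20a1 spanned 7.26 to 8.17, with a difference of 0.20 (SE 0.25) for primed against non-primed, and shares 79 exonic bases with a same-strand transcript. Col22a1, known from muscle-tendon junctions, had 3.12, 3.48 and 3.74 in primed, 3.71, 3.92 and 3.73 in non-primed and 3.09 to 3.80 in naive libraries. Primed 1 and 2 lay below every non-primed library, and primed 3 lay within their range (difference -0.34, SE 0.22, adjusted p = 0.9999).

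Type VI collagen forms beaded filaments that link cells to the interstitial fibrils, and all 6 of its genes were measured. Its main chains, Col6a1, Col6a2 and Col6a3, varied little among the 6 injected libraries. Col6a1 had 14.89, 15.01 and 15.06 rlog in primed, 14.87, 14.77 and 14.93 in non-primed and 14.96, 15.34 and 14.91 in naive libraries. Col6a2 had 14.23, 14.23 and 14.35 in primed, 14.13, 14.21 and 14.16 in non-primed and 14.49, 14.88 and 14.00 in naive libraries. It was the collagen whose primed and non-primed values did not overlap, with primed libraries higher by a difference of 0.11 (95% interval -0.34 to 0.55, adjusted p = 0.9999). Col6a3, the longest of the chains, had 15.15, 15.19 and 15.28 in primed, 15.13, 15.20 and 15.18 in non-primed and 15.07, 15.15 and 15.73 in naive libraries, and only naive 3 stood apart. Against naive, non-primed cultures differed by -0.21 for Col6a1, -0.29 for Col6a2 and -0.15 for Col6a3 (adjusted p = 0.524, 0.52 and 0.742). These rested on single naive libraries: without naive 2 they were -0.08 for Col6a1 and -0.08 for Col6a2, and without naive 3 they were -0.52 for Col6a2 and 0.06 for Col6a3. The weaker chains lie next to each other on chromosome 9. Col6a5 had 4.17, 5.04 and 5.35 in primed, 5.60, 5.55 and 4.63 in non-primed and 3.89, 4.69 and 3.90 in naive libraries. Naive 2 reached above the lowest non-primed value, and the difference was 1.11 (SE 0.39, adjusted p = 0.23) for non-primed and 0.70 (SE 0.39, adjusted p = 0.386) for primed against naive. Col6a6 spanned 4.93 to 7.03 and Col6a4 2.69 to 3.68.

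Type IV collagen, the network of basement membranes, was carried by Col4a1 and Col4a2. They start head to head on chromosome 8 and share 22 bases between their starts, printed here with no capitals because no motif lies in them (GRCm38.p6, chr8:11312805-11312826, plus strand).
Col4a1/Col4a2: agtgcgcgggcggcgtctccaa
Col4a1 had 14.46, 14.33 and 14.30 rlog in primed, 14.26, 14.48 and 13.99 in non-primed and 14.12, 14.23 and 14.81 in naive libraries. Col4a2 had 13.98, 14.13 and 14.05 in primed, 13.92, 14.15 and 13.67 in non-primed and 13.64, 13.86 and 14.30 in naive libraries. All groups overlapped for both genes, and the differences of primed from non-primed were 0.12 (SE 0.20) and 0.14 (SE 0.18). Col4a5 spanned 10.43 in naive 2 to 11.79 in naive 3, with 11.52 to 11.74 in primed and 11.35 to 11.52 in non-primed libraries. Col4a4, a chain of the kidney filter, was weak at 3.15, 3.27 and 3.49 in primed, 3.00, 2.97 and 3.19 in non-primed and 3.31, 3.73 and 3.85 in naive libraries. Its non-primed values lay below all naive ones (difference -0.58, SE 0.17, adjusted p = 0.186), while the primed values overlapped both groups (primed against non-primed 0.25, SE 0.17; primed against naive -0.33, SE 0.17).

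The chains that assemble into 1 molecule, or lie side by side in the genome, could be compared within each library, which removes what a library adds to both. Col4a1 minus Col4a2 ranged over 0.319 across the 9 libraries, where Col4a1 itself ranged over 0.821 and Col4a2 over 0.654. Col1a1 minus Col1a2 ranged over 0.592, against 1.321 and 1.05 for the single chains, although the genes lie on chromosomes 11 and 6. It was -2.29, -2.15 and -2.16 in primed, -1.79, -1.95 and -1.70 in non-primed and -2.14, -1.81 and -1.93 in naive libraries. All 3 primed values were below the 6 others, while non-primed and naive values overlapped. This pair was picked out of 8 after its values were seen, so no test is given. Col6a1 minus Col6a2, neighbours on chromosome 10, ranged over 0.453. Col3a1 minus Col5a2, which lie 24614 bases apart tail to tail, ranged over 1.266, against 1.676 and 1.852 for the single chains, and Col5a1 minus Col5a2 over 1.03, against 1.07 and 1.852. The chains differed more than either varied alone for Col6a2 minus Col6a3, over 1.468 against 0.881 and 0.663, and for Col8a1 minus Col8a2, over 2.368 against 2.063 and 1.844.

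**Figure D4:**
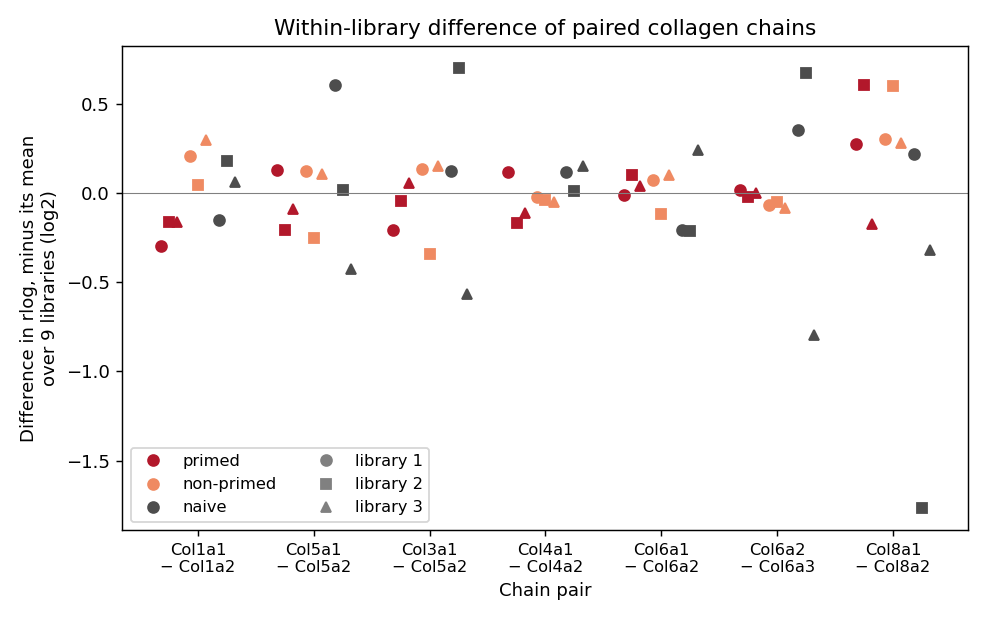
Difference between paired chains within each library (log2, first-named chain minus the other, minus the mean of that difference over 9 libraries), with primed points on the left of each pair, then non-primed and naive. The Col4a1 and Col4a2 points are tight, and the Col1a1 minus Col1a2 points of primed libraries lie below the others.

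The short chain collagens were led by Col8a1, a chain of the hexagonal lattices around vessels and in the eye. It had 13.16, 13.96 and 13.51 rlog in primed, 13.56, 14.08 and 13.58 in non-primed and 13.10, 12.34 and 14.40 in naive libraries, and the naive values spread past all others at both ends (differences -0.19, 0.46 and 0.27, SE 0.46 each, limma adjusted p from 0.681 to 0.9999). Col8a2 spanned 10.66 to 12.50, with both extremes in naive libraries. Col10a1, the collagen of hypertrophic cartilage, had 6.26, 7.63 and 7.38 in primed, 6.71, 7.64 and 6.83 in non-primed and 6.43, 5.23 and 6.43 in naive libraries. Non-primed values lay above all naive ones, and primed 1 did not (non-primed against naive 1.03, SE 0.45, adjusted p = 0.327; primed against naive 1.06, SE 0.45, adjusted p = 0.288). It shares 18 exonic bases with Nt5dc1 on the other strand, at a mean of 7.88 rlog.

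Multiplexins, whose cut ends include endostatin, did not separate the groups. Col15a1 had 6.13, 7.65 and 7.39 rlog in primed, 6.97, 7.61 and 6.79 in non-primed and 7.41, 7.24 and 7.57 in naive libraries, with primed 1 the lowest of all. Col18a1 had 12.85, 12.82 and 12.74 in primed, 12.78, 12.78 and 12.58 in non-primed and 12.93, 12.38 and 12.25 in naive libraries, with both naive 2 and naive 3 below every injected library. Col18a1 differed by 0.28 (SE 0.16, adjusted p = 0.404) in primed and by 0.19 (SE 0.16, adjusted p = 0.619) in non-primed against naive. Without naive 1 these values were 0.48 and 0.39, and without naive 3 they were 0.15 and 0.06. Col7a1, the anchoring fibril of skin, spanned 6.14 to 7.74. Of the transmembrane collagens, Col23a1 spanned 6.24 to 7.95 and Col17a1, of hemidesmosomes, 2.87 to 3.46. Col25a1, best known from nerve and muscle development, was at 2.79, 3.25 and 3.47 in primed, 3.08, 3.39 and 3.36 in non-primed and 2.69, 2.92 and 8.21 in naive libraries. The value of naive 3 stood far above the other 8, and the difference of -1.33 (95% interval -4.14 to 1.48) for non-primed against naive rests on that library.

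Col28a1, the type XXVIII collagen described in basement membranes of peripheral nerve (chromosome 6, 7997808 to 8192617), showed the widest difference of all collagens in non-primed against naive cultures. In primed against naive cultures Col25a1 was wider, at -1.43. Col28a1 had 8.00, 9.57 and 9.55 rlog in primed, 9.36, 9.51 and 9.63 in non-primed and 8.34, 7.77 and 7.26 in naive libraries. The 3 non-primed libraries and primed 2 and 3 lay above all naive ones, and primed 1 lay among them. Non-primed cultures differed from naive by 1.71 (SE 0.42, 95% interval 0.75 to 2.67, limma adjusted p = 0.142) and primed cultures by 1.25 (SE 0.42, adjusted p = 0.212). Without primed 1, which enters the first of these only through the shared spread, the difference of non-primed from naive was again 1.71 and passed (adjusted p = 0.0486), and that of primed from naive was 1.77 (adjusted p = 0.0557). The number of all genes that passed without primed 1 is not given here. Primed against non-primed the Col28a1 difference was -0.46 (SE 0.42, adjusted p = 0.9999), and 0.06 (SE 0.27) without primed 1. The 6 measured of 7 Schwann cell markers had library means of 7.62 to 8.58 in primed, 8.16 to 8.70 in non-primed and 6.70 to 8.37 in naive cultures. Their summed level was 10.63 to 11.60 (log2) in primed, 11.18 to 11.74 in non-primed and 9.65 to 11.66 in naive cultures. Their lowest primed mean was in primed 1 and their lowest naive mean in naive 3, as for Col28a1. In the non-primed group their mean was lowest in non-primed 3, at 8.16, where Col28a1 was highest. The part of these markers in the Col28a1 values was not tested.

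The 250 bases before the RefSeq start of Col28a1 (GRCm38.p6, chr6:8192618-8192867, minus strand) are shown for the gene with the widest difference in non-primed against naive cultures. Neither CCAAT nor TATAAA stands in it, so no letter is in capitals.
Col28a1: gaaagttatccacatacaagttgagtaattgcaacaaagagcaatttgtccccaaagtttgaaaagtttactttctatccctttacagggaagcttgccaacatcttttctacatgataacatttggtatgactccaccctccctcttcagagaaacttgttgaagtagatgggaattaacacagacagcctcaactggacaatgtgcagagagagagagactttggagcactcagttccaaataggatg

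The genes near the bound of 3 were just inside it at 3.13 for Col6a4, 3.20 for Col17a1, 3.29 for Col26a1, 3.33 for Col4a4, 3.56 for Col22a1 and 3.69 for Col25a1, and just outside at 2.70 for Col4a3 and 2.10 for Col9a1 (means over 9 libraries). The other genes not measured were Col19a1 at 1.98, Col4a6 at 1.73 and Col13a1 at -0.34. The counts above describe the 39 measured genes only.

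**Figure D5:**
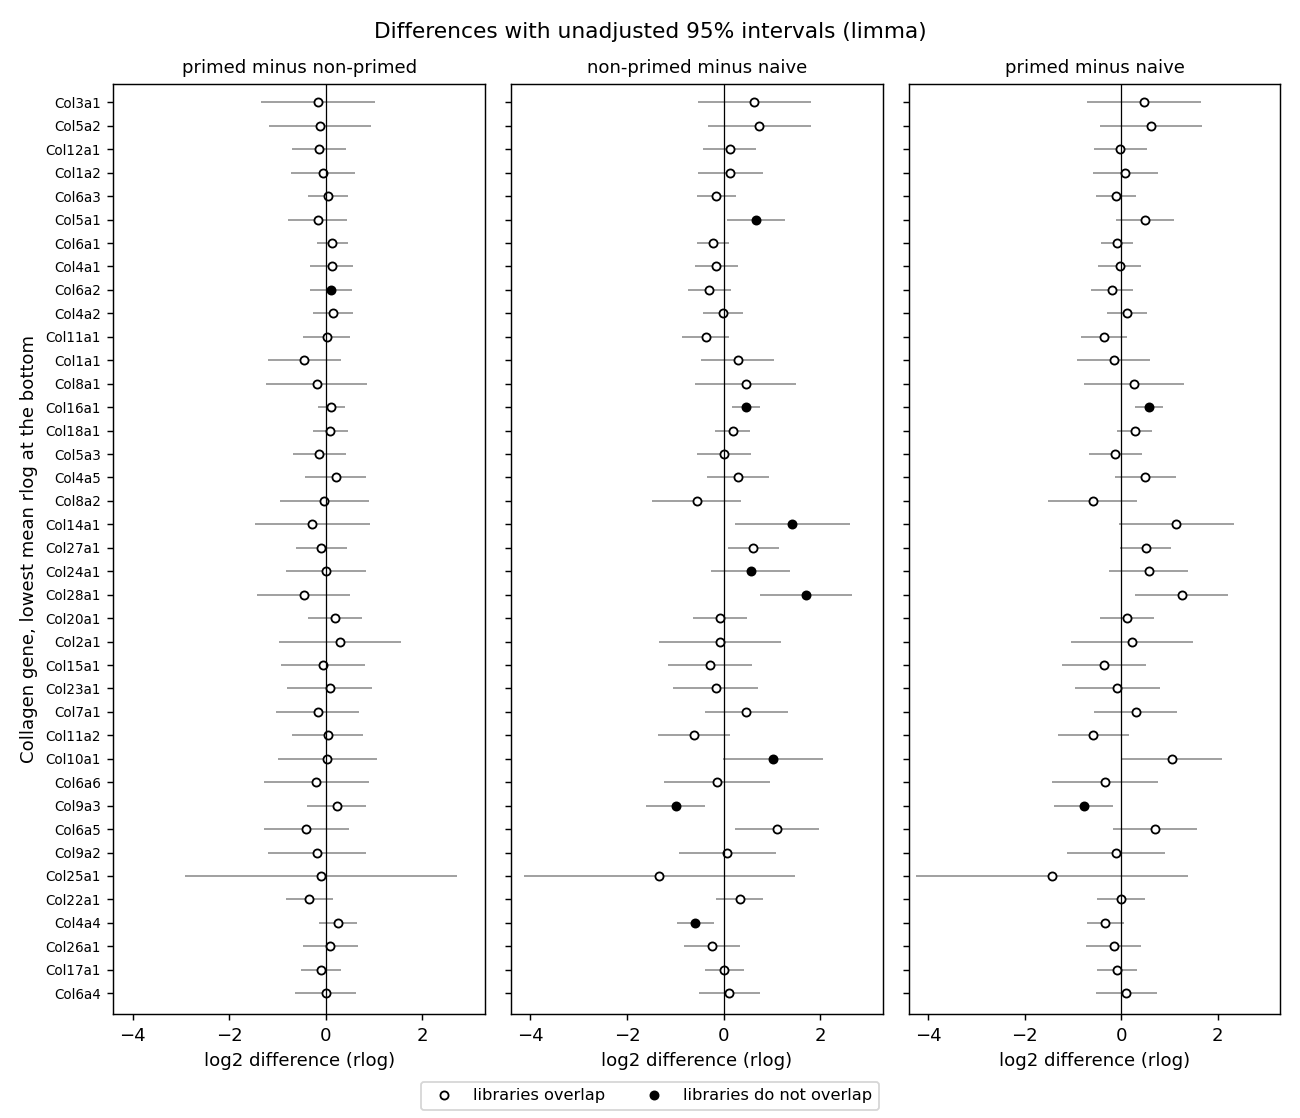
Log2 difference of each measured collagen with its 95% interval, in 3 panels: primed minus non-primed, non-primed minus naive and primed minus naive. All primed minus non-primed differences lie within 0.5 of 0, and intervals that exclude 0 in the other panels are those with an unadjusted p below 0.05.

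Genes that make, mature, organise, bind and break down collagen were read through 7 lists with 69 measured genes, and 0 of them passed in any comparison (limma). At an unadjusted p below 0.05 there were 0 of the 69 in primed against non-primed (1.26% of all genes), 20 (29.0%) in non-primed against naive beside 15.4% of all genes and 18 (26.1%) in primed against naive beside 16.9%. Over all genes tested, the share with a difference above 0 was 50.3% in primed against non-primed, 51.7% in non-primed against naive and 49.8% in primed against naive. The 13 hydroxylases, which modify proline and lysine so that the helix is stable, had a median of 0.12 for non-primed and 0.188 for primed against naive. P3h2, a prolyl 3-hydroxylase, was at 7.95, 7.43 and 7.82 rlog in primed, 7.68, 7.61 and 7.67 in non-primed and 9.43, 9.37 and 8.56 in naive libraries. All naive values were above all injected ones (primed -1.39, SE 0.23, adjusted p = 0.0811; non-primed -1.47, SE 0.23, adjusted p = 0.0583). P4ha2, a prolyl 4-hydroxylase, had a difference of 0.97 (adjusted p = 0.129) for non-primed, and Plod1, a lysyl hydroxylase, of 0.85 (adjusted p = 0.1) for primed against naive. All 5 cross-linking enzymes had a difference above 0 against naive, with a median of 0.322 for primed and 0.414 for non-primed cultures. Loxl2 differed by 0.52 (adjusted p = 0.306) in primed and by 0.68 (adjusted p = 0.227) in non-primed cultures. In primed against non-primed all 5 lay below 0, with a median of -0.131, Loxl4 at -0.13 and Lox at -0.22. Without primed 1, 4 of the 5 lay above 0, with a median of 0.08 and Lox at 0.08. Primed 1 held the lowest primed value of those 4, so leaving it out had to raise them.

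Among 12 measured of 13 folding and export genes, the galactosyltransferase Colgalt1 differed by 0.34 (adjusted p = 0.128) in primed and by 0.42 (adjusted p = 0.0878) in non-primed against naive, and the transcription factor Creb3l1 by -0.57 (adjusted p = 0.153) and -0.39 (adjusted p = 0.272). The propeptide protease gene Adamts14 differed by 0.42 (adjusted p = 0.175) in primed and by 0.47 (adjusted p = 0.155) in non-primed cultures, among 7 measured of 8. Of 12 fibril regulators, 9 lay below 0 in both injected groups, with medians of -0.333 in primed and -0.473 in non-primed cultures, and the periostin gene Postn lay above, at 1.07 (adjusted p = 0.148) and 0.97 (adjusted p = 0.174). Fbln1, which encodes fibulin-1, differed by -0.46 (adjusted p = 0.287) in primed and -0.73 (adjusted p = 0.164) in non-primed cultures. Of 9 receptors, Ddr2 differed by -0.60 (adjusted p = 0.215) in primed and by -0.67 (adjusted p = 0.194) in non-primed cultures. Lair1, an inhibitory receptor of leukocytes, differed by 1.45 (limma adjusted p = 0.209) in primed and by 1.47 (adjusted p = 0.216) in non-primed cultures. Macrophage markers were higher in 14 of 14 in both (0 passed), and their part in the Lair1 values was not tested. The breakdown list had 10 of 11 above 0 in both, with medians of 0.31 in primed and 0.306 in non-primed cultures. Pepd, the dipeptidase that frees proline from collagen fragments, differed by 0.48 (SE 0.08, adjusted p = 0.0757) in primed and by 0.39 (SE 0.08, adjusted p = 0.0878) in non-primed against naive. The comparisons with naive share the naive libraries in all these lists.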

How the data were processed

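RNA of 9 cultures was sequenced from a stranded mRNA kit, per the labels' protocols. Per the submitters' processing notes, GRCm38, STAR 2.5.4a, cutadapt 2.5, featureCounts of Subread 1.6.1 and DESeq2 were used. Annotation release and strand setting of the counting: not given in the sources used here. What the authors deposited is 1 table of rlog values, on a log2 scale, for 47729 genes in 9 libraries, scaled for depth by the transformation, which draws low values towards each gene's mean. Of these genes 19972 were at 0 in all libraries. No counts were used here, so depth is unknown and precision rests on the spread among 3 libraries.

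Symbols were looked up by gene identifier, with 47224 found, and positions and exon lengths from GENCODE M21 (GRCm38). Promoter sequences came from RefSeq (GRCm38.p6) and matched 35 of 44 collagen genes. Groups came from the sample titles. Genes with a mean rlog of at least 3 were tested (15623) in limma 3.58.1 (R 4.3.3), with 1 mean per group, a variance trend and 6 residual degrees of freedom, two-sided. P-values were adjusted by Benjamini-Hochberg over all of them. The fitting was tested on simulated data.

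Every collagen gene is accounted for. The rule set full values for those past the threshold, the 5 with the smallest p per comparison and direction, and 16 fixed chains. For pathway lists it set the 2 genes with the smallest p. It was followed in part: Col8a2, Col11a2, Col15a1 and Col20a1, among others, were given in shorter form. The members, lists and this rule were chosen with earlier results of these data known. Primed and non-primed numbers were checked as pairs. Deviations from group means correlated at 0.418, 0.608 and 0.100 for numbers 1, 2 and 3, each above 0.1, the last at that bound. Of unlike numbers, primed 1 with non-primed 3 correlated at 0.275, primed 3 with non-primed 1 at 0.031, and the others below 0. Deviations within a group sum to 0, so these values are not independent. The libraries were taken as possibly paired. The numbers come from the sample titles and need not name a mouse.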

Additional observations from a re-analysis of the deposited data

How the results depend on the processing

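Of 67 recalculated counts of collagen genes past the threshold, 61 stayed at 0, over other filters, no variance trend, a robust prior, centring on the library median, 2 groups alone, the replicate number as a block and each library left out. Sample weights gave 4 collagens for primed against non-primed (Col16a1, Col2a1, Col4a4, Col6a2), 1 for non-primed against naive (Col16a1), 3 for primed against naive (Col14a1, Col16a1, Col27a1) and 6 for any difference, beside 2109, 621, 733 and 2485 of all genes; the weights ranged from 0.133 (naive 3) to 10.4 (non-primed 1). Leaving out 1 library gave 0 to 1 collagens for non-primed against naive (Col28a1 without primed 1) and 0 to 1 for primed against naive (Col16a1 without naive 2, adjusted p = 0.0462). The share of all genes that passed in those single fits is not given here, so these calls cannot be read as particular to collagens. In primed against non-primed, Col28a1 reversed to 0.057 and Col5a1 to 0.119 with sample weights, and leaving out 1 library gave -0.729 to 0.059 for Col28a1 and -0.38 to 0.155 for Col5a1, the positive values without primed 1. In primed against naive, Col8a2 reversed to 0.29 with sample weights. The cause was not tested. With the replicate block, 0 collagens passed, so the block changed no collagen call. All genes then gave 0, 17 and 51 calls in primed against non-primed, non-primed against naive and primed against naive. The fit without it gave 0, 22 and 16. This block also tied naive libraries to injected ones by number, so it does not test a pairing of the injected groups alone. Over all alternatives all genes gave 0 to 2109, 0 to 621 and 0 to 733 calls. Depth could not be weighed, since the values hold none.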
